A study of Mus musculus with 64 samples.

Results

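The genes described here are 33 mouse genes for making cholesterol and fatty acids, out of 39017 genes in the count table. They are a fixed list of names, 23 genes of the sterol branch and 10 of the fatty acid branch, drawn up with earlier results of these data known. In the count table, 32 of them were found by symbol, and Msmo1, which the table calls Sc4mol, was found by its Ensembl identifier ENSMUSG00000031604. All 33 passed the filter on low counts in every comparison.

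RNA was sequenced from 8 mouse pancreatic tumour lines of a mixed C57BL/6 background. Of these, 7 are clones from the tumour of a single KPC mouse, a genetic tumour model that carries Cre under the Pdx1 promoter and, among its alleles, a heterozygous mutant Trp53, so each is 1 clonal line of 1 tumour. From their metabolite pools, the paper placed clones E, H and V in group 1 and clones K, M, N and T in group 2. The KPC1 line was given no group and was left out of comparisons of the groups. There are 64 libraries, 8 for each line: 4 of cells grown alone (mono-culture) and 4 of tumour cells sorted by green fluorescence after 48 h in a dish with fibroblasts (coculture). Neither the labels nor the paper say whether mono-cultures were sorted, or whether libraries of a line came from separate dishes, so p-values within a line measure the spread between these libraries, which may be technical. Levels are given as CPM, the counts scaled to a common library size after TMM normalization, with the SD over 4 libraries. Gene calls are at an adjusted p under 0.1 in edgeR's quasi-likelihood test (Benjamini-Hochberg over all genes tested).

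The libraries held 11178721 to 21333683 counts (median 15648009). Of 8 ductal epithelial markers, 7 exceeded 1 CPM on average in both cultures, Epcam being the exception at 0.143 CPM in mono-culture and 0.0563 in coculture. Of these markers, Krt19 (−0.70 on the log2 scale over 8 lines, adjusted p = 0.0024) and Krt8 (−0.51, adjusted p = 0.0809) were called lower in coculture and Sox9 (0.27, adjusted p = 0.026) higher. Of 4 leukocyte markers, only Cd68 exceeded 1 CPM on average. It was called higher, with means of 10.8 CPM in mono-culture and 27.3 in coculture. Of the other leukocyte markers, Cd3e had no count in either culture and Adgre1 none in coculture. Of 3 endothelial markers, 1 was called lower and 1 higher. Of 12 fibroblast markers, 11 were called higher in coculture. Their summed level was 47.9 to 254 CPM per library in mono-culture and 229 to 1904 in coculture. Thy1 and Lum had no count in mono-culture. The coculture mean of that sum was lowest in E (613 ± 244 CPM) and highest in K (1254 ± 632) and N (1219 ± 467). The part of any of these markers in the results below was not tested. In bulk RNA of this kind, fewer cells of a type and less RNA per cell cannot be told apart. Of 6 adipocyte markers, Lep had no count in either culture and Plin1 none in mono-culture, and of the 6 only Cebpa exceeded 1 CPM, at 44.5 CPM in mono-culture and 22.8 in coculture, where it was called lower.

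Cholesterol is built from acetyl-CoA by way of mevalonate, which is turned into isoprene units, squalene and lanosterol and then trimmed into cholesterol. Fatty acids are built from the same acetyl-CoA by carboxylation, chain synthesis, elongation and desaturation. Both branches are transcribed under sterol regulatory element binding proteins. SREBP-2, from Srebf2, is known mainly for sterol genes, and SREBP-1, from Srebf1, mainly for fatty acid genes. The carrier Scap brings them to the Golgi for cleavage when sterol in the endoplasmic reticulum is low, and the Insig proteins hold them back when it is high.

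The first comparison asked how tumour cells changed beside fibroblasts, with the 8 lines as replicates (counts of 4 libraries summed, 16 sums, line as covariate). Both branches fell in coculture. In the sterol branch, 19 of 23 members were called lower and 0 higher, with a median log2 fold change of −0.54. In the fatty acid branch, 9 of 10 were called lower and 0 higher, with a median of −0.38. Of all 14478 genes tested, 27.4% were called lower and 27.2% higher, and the median was −0.001. The fatty acid median was thus the smaller one, and the call share was similar in both branches; with the regulators set aside, the medians were −0.62 over 18 sterol enzymes and −0.42 over 9 fatty acid enzymes. No test was run of one branch against the other.

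**Figure D1:**
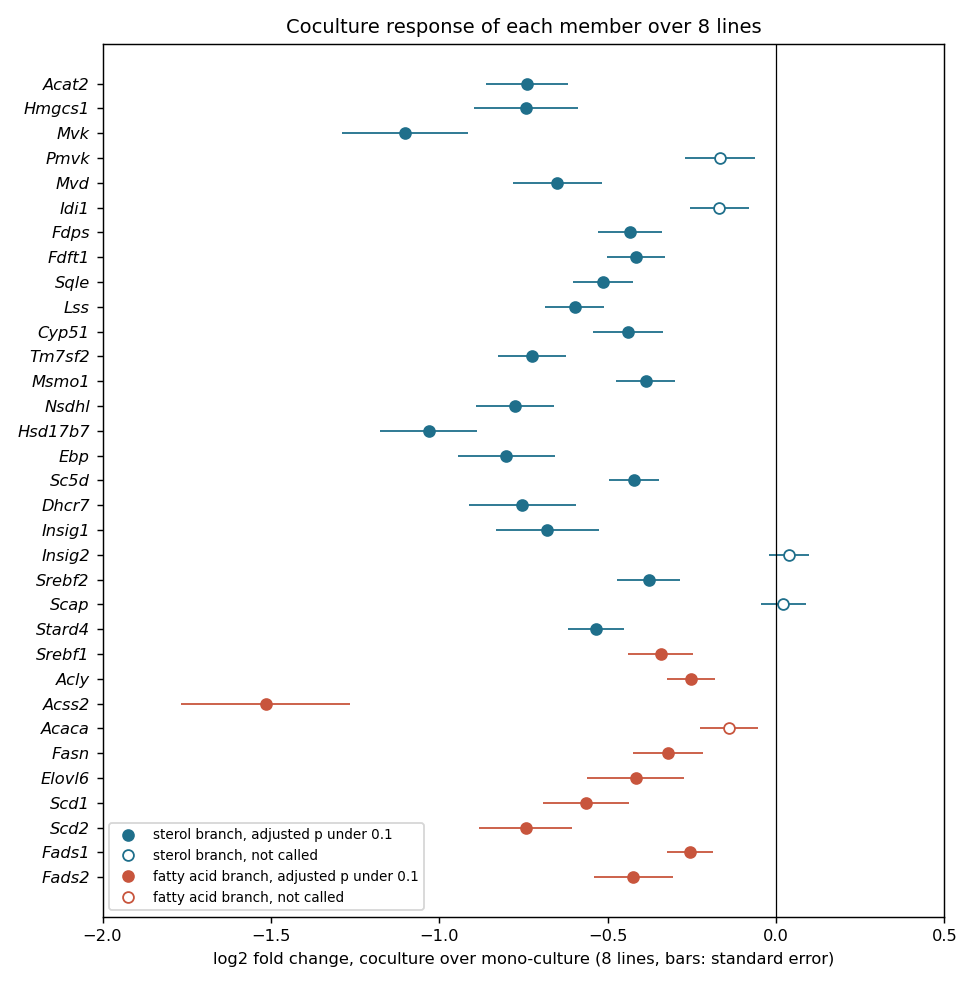
Log2 fold change of each of the 33 members, coculture over mono-culture, over 8 lines (bars, standard error), with filled points for an adjusted p under 0.1. 28 filled points lie to the left of 0, Acss2 farthest at −1.52, and the 5 open points are Pmvk, Idi1, Insig2, Scap and Acaca.

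From acetyl-CoA to farnesyl pyrophosphate, 5 of 7 genes were called lower. Mvk, the kinase that phosphorylates mevalonate, had the largest change of the sterol branch, 53.4% lower (log2 fold change −1.10, SE 0.19, adjusted p = 0.00238). Hmgcs1, which makes HMG-CoA, was 40.3% lower (−0.74, SE 0.15). Acat2, which condenses acetyl-CoA at the entry, was 40.1% lower (−0.74, SE 0.12), and Mvd, the decarboxylase, 36.3% lower. Fdps, which makes farnesyl pyrophosphate, was 25.96% lower. The kinase Pmvk (−0.17, SE 0.10, adjusted p = 0.214) and the isomerase Idi1 (−0.17, SE 0.09, adjusted p = 0.142) lie between these steps and did not pass the test, although both values were negative.

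All 11 genes of the path from farnesyl pyrophosphate through squalene to cholesterol were called lower, by log2 fold changes of −0.39 to −1.03. Hsd17b7, a reductase of the demethylation complex, fell most, to 51.1% below mono-culture (−1.03, SE 0.14, adjusted p = 0.00132). Ebp, a sterol isomerase, was 42.6% lower, and Nsdhl, a dehydrogenase of the same complex as Hsd17b7, was 41.6% lower. Dhcr7, which makes cholesterol in the last step, was 40.7% lower, and Tm7sf2, a sterol reductase, 39.5% lower. Lss, which closes squalene epoxide into lanosterol, was 33.9% lower, and Sqle, which makes that epoxide, 30.04% lower. The smaller values were those of Cyp51 (26.2% lower), Sc5d (25.3%), Fdft1 (25.04%) and Msmo1 (23.5%).

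Among 5 genes that sense or move sterol, 3 were called lower. Insig1, itself a known SREBP target, was 37.5% lower (−0.68, SE 0.15, adjusted p = 0.00676), Stard4, a cholesterol carrier, 30.97% lower and Srebf2 23.02% lower. The paralog of Insig1, Insig2 (0.04, SE 0.06, adjusted p = 0.625), and the carrier Scap (0.02, SE 0.07, adjusted p = 0.808) had the values nearest 0 of all 33 members and were not called.

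In the fatty acid branch, Acss2, which makes acetyl-CoA from acetate, had the largest change of any member. It was 65.0% lower in coculture (−1.52, SE 0.25, adjusted p = 0.00225). Over the lines its mean level was between 19.8 and 76.2 CPM in mono-culture (median 35.96) and between 6.27 and 27.3 in coculture (median 13.3), and it fell in every line. Acly, which makes acetyl-CoA from citrate, was 16.02% lower (−0.25, SE 0.07, adjusted p = 0.0174). Acaca, the carboxylase that makes malonyl-CoA, was the single member of the branch not called (−0.14, SE 0.09, adjusted p = 0.213). Fasn, the chain synthase, had a log2 fold change of −0.32 (SE 0.10, adjusted p = 0.0294), and the elongase Elovl6 was 25.1% lower. All 4 desaturases were called lower. Scd2 was 40.2% lower (−0.74, SE 0.14, adjusted p = 0.00319), Scd1 32.4%, Fads2 25.5% and Fads1 16.3%. Srebf1 was 21.1% lower (adjusted p = 0.017).

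Per length, the members covered a wide range. On the RPKM scale, which divides by gene length and library total, Scd2 had the highest mono-culture level (815 RPKM averaged over the lines, 514 in coculture). Acaca had the lowest mono-culture level (4.06, with 3.69 in coculture), close to that of Acss2 (4.22). In coculture Acss2 was the lowest, at 1.41 RPKM. Some members share annotated exon bases with another gene, which limits their counts. On the same strand, Fdps shares 26.7% of its exon bases with Gm43738 and Tm7sf2 12.1% with Vps51, and these values are uncertain to that extent. Fdft1 shares 18.3% with Ctsb on the opposite strand, which the strand-specific kit can separate if the counting used strand. The sources used here do not say whether it did.

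Since the members moved together, the 250 bases before each RefSeq transcript start (GRCm38.p6) were searched on both strands for letters of 4 known elements. These were the sterol regulatory element core TCACNCCAC, CCAAT, at which NF-Y binds beside SREBP, the GC box GGGCGG of Sp1 and the E-box CACGTG. Windows were found for 19 sterol and 7 fatty acid members. The table has 27025 genes with a window, of which 9730 were tested here. CCAAT was found for 17 of 19 sterol members and 3 of 7 fatty acid members, against 40.8% of the tested genes. GGGCGG was found for 18 of 19 and 4 of 7, against 64.1%. CACGTG was found for 5 of 19 and 0 of 7, against 9.75%. TCACNCCAC in this strict form was found once, in Hmgcs1, against 1.25% of the tested genes. Over all 27025 genes, the shares were 37.5%, 35.4%, 6.86% and 1.23% in the same order. Overlapping matches were counted apart, as for 2 CCAAT matches on opposite strands in Fasn that share bases. A match says that the letters are there, not that a factor was bound.

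The windows below are shown for the 3 sterol and 2 fatty acid members whose responses or matches are described here, with matches in capitals, 5′ to 3′ on the gene's strand. Bases inside annotated exons of any gene were left out.
Hmgcs1 (chr13:119690101-119690350, plus strand), the only member with the sterol regulatory element core, 137 bases before the start: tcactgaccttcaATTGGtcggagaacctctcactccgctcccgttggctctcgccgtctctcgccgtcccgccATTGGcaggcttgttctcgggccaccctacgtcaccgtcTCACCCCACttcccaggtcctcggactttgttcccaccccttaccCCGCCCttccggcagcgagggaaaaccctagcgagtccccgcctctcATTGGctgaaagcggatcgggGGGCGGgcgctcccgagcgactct
Hsd17b7 (chr1:169969242-169969408, minus strand), with the smallest p of the sterol branch: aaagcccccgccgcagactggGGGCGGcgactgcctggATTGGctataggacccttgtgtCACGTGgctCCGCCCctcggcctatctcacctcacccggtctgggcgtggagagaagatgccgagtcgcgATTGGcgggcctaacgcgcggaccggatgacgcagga
Lss (chr10:76531355-76531587, plus strand), a sterol member whose response did not differ detectably between lines: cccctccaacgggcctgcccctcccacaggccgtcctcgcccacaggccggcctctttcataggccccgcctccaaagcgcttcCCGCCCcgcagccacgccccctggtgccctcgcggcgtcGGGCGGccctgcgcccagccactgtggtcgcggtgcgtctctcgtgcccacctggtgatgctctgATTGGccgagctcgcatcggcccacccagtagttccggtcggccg
Acss2 (chr2:155517793-155517947, plus strand), with the largest change of the fatty acid branch: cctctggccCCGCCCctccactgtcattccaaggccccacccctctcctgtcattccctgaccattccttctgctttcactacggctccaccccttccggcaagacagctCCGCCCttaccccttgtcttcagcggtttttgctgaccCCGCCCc
Fasn (chr11:120824548-120824797, minus strand), the chain synthase, with CCAAT but no GC box: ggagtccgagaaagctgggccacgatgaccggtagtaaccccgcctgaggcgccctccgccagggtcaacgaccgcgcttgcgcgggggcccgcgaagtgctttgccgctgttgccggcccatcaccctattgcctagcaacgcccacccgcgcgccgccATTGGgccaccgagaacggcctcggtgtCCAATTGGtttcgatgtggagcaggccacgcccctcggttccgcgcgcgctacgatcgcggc

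The printed stretches differ in the elements they hold. The Hmgcs1 window has 6 matches, 3 of them CCAAT on the opposite strand, where it reads ATTGG. The printed Hsd17b7 stretch has 5 matches, among them an E-box, while the Acss2 stretch has 3 GC boxes. A CCAAT and a further GC box of the Acss2 window lie in annotated exon and are not shown.

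The second comparison asked in which lines the fall was seen (4 coculture against 4 mono-culture libraries in each, with 1 estimate of the spread shared by all 64 libraries). In E, 20 of 23 sterol members and 10 of 10 fatty acid members were called lower, against 29.2% of all genes. In V the counts were 20 and 8 (all genes, 31.5%), in T 20 and 8 (30.7%), in H 17 and 9 (22.6%) and in KPC1 14 and 8 (19%). In these 5 lines no member was called higher, against 32.1% of all genes in E, 30% in V, 31.5% in T, 21.4% in H and 20.1% in KPC1. In the other 3 lines the counts were 4 and 1 in M (17.3%), 5 and 1 in N (17.4%) and 0 and 1 in K (8.02%). The 5 lines with many calls were thus all 3 clones of group 1, clone T of group 2 and KPC1.

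**Figure D2:**
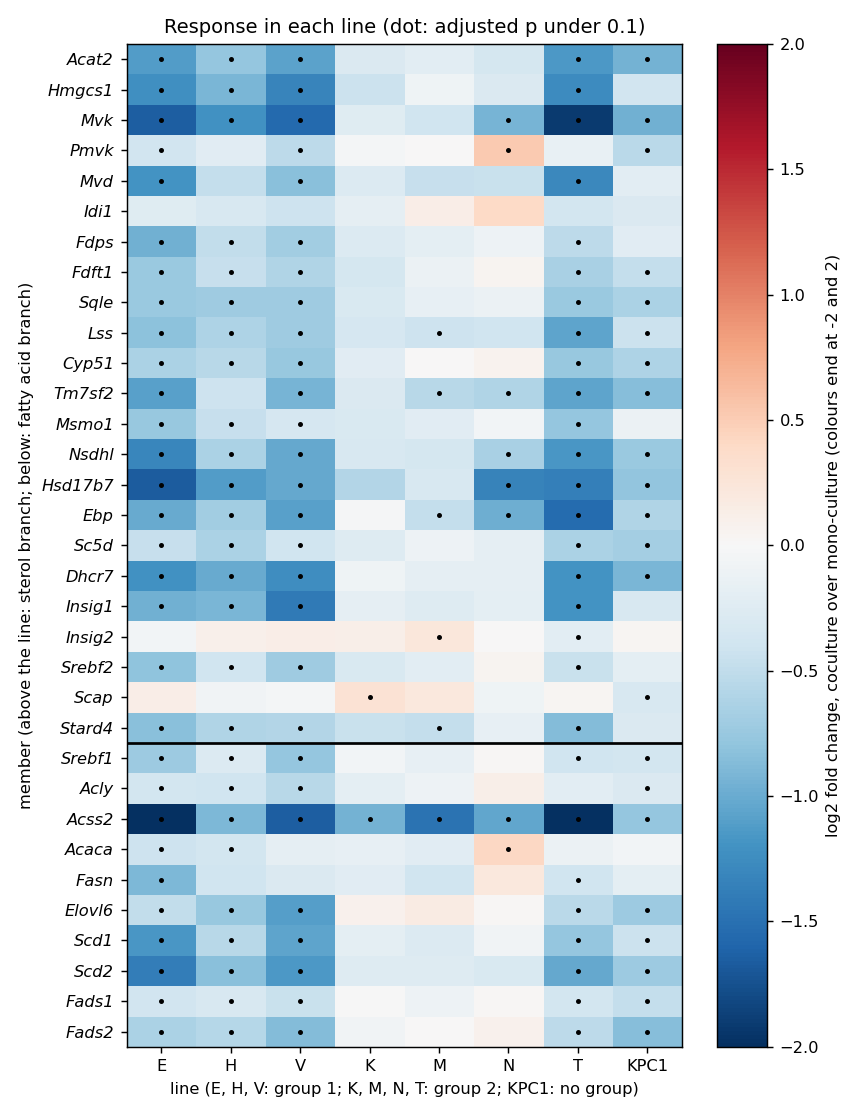
Log2 fold change of each member (rows) in each line (columns), coculture over mono-culture, with a dot where the adjusted p was under 0.1. Columns E, H, V, T and KPC1 are mostly blue with dots, and columns K, M and N are pale with dots for few genes, among them Acss2 in all 3.

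The medians over the members gave the same split into 5 and 3 lines. For the sterol branch the median log2 fold change was −0.87 in T, −0.83 in E, −0.72 in V, −0.61 in H, −0.48 in KPC1, −0.28 in K, −0.21 in M and −0.17 in N. For the fatty acid branch it was −0.82 in V, −0.69 in E, −0.48 in H, −0.46 in T, −0.45 in KPC1, −0.19 in M, −0.18 in K and 0.03 in N. The sterol branch had the more negative median in 7 lines, and V was the exception. With the regulators set aside, M was an exception too (−0.21 for sterol and −0.22 for fatty acid enzymes).

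Sharing the spread over all lines makes the standard errors of the lines alike, so the libraries themselves were also compared. The 4 coculture libraries all lay below the 4 mono-culture libraries for 28 of 33 members in E, 29 in H, 29 in V and 23 in T (all genes, 20.7%, 17.4%, 24.2% and 22.7%). In K this held for 13 members, 11 of them sterol genes (all genes, 8.00%), although only 1 member was called there. It held for 10 members in M (17.3%), 9 in KPC1 (11.4%) and 0 in N (9.57%). By this count KPC1 thus lay below K and M, unlike in the split by calls and medians. The mean was lower in coculture for 32 members in KPC1, 30 in K, 26 in M and 20 in N.

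Over the lines, 17 of 23 sterol members and 9 of 10 fatty acid members had no overlap in at least 4 lines, against 14.3% of all genes. The mean was lower in coculture in all 8 lines for 16 of 23 sterol members and for 3 of 10 fatty acid members, namely Acss2, Scd1 and Scd2, against 12.4% of all genes.

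Several of these calls depended on few libraries. The H and KPC1 counts of 26 and 22 members called lower were 13 and 2 within the larger inferred sample sheet. Sample sheets here are a split of the libraries by the numbers in their titles, and no label names a batch. The larger sheet holds 6 of 8 H libraries and 4 of 8 KPC1 libraries, 1 of these from mono-culture. Without replicate number 2, KPC1 had 13. Coculture library 2 of KPC1 had the fewest counts of all libraries (11178721). It had, for example, 22.8 CPM of Acat2 against 65.0 to 148 in the other coculture libraries of KPC1. For Scd2 it had 1380 CPM against 2431 to 2753. For K the count moved between 0 (without number 1 or 4) and 5 (without number 2), for M between 1 (without number 3) and 5, and for N between 3 (without number 2) and 9 (without number 4). E, V and T kept at least 25 members under all the alternatives.

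Acss2 (ENSMUSG00000027605, chr2:155517948-155585724, plus strand) was the member called lower in all 8 lines. In E its mono-culture libraries had 65.6, 86.5, 57.8 and 91.2 CPM and its coculture libraries 7.04, 17.1, 5.17 and 7.95 CPM, a log2 fold change of −3.01 (SE 0.36, adjusted p = 9.37e-10). The groups of libraries in E were far apart. In K the mono-culture libraries had 24.2, 42.5, 19.5 and 44.2 CPM and the coculture libraries 15.7, 18.3, 13.6 and 20.1 CPM (−0.94, adjusted p = 0.0469), and here the groups overlapped. The response was −2.40 in T, −1.65 in V, −1.48 in M, −1.04 in N, −0.90 in H and −0.77 in KPC1, and libraries of the cultures overlapped in N and KPC1 as well.

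Hsd17b7 (ENSMUSG00000026675, chr1:169949535-169969241, minus strand) was called lower in 6 lines. In E it averaged 257 ± 32.5 CPM in mono-culture and 81.6 ± 5.34 in coculture, and the 4 libraries of each did not overlap. In M it averaged 99.8 ± 13.1 and 79.9 ± 10.4 CPM, a difference that did not pass the test (adjusted p = 0.38), although the libraries did not overlap there either. N was the line with the widest spread. Its mono-culture libraries had 183, 331, 73.9 and 84.6 CPM and its coculture libraries 58.7, 98.5, 57.8 and 52.5 CPM. N was called lower (−1.33, adjusted p = 0.000164) although libraries of the cultures overlapped, mono-culture libraries 1 and 2 being far above the others.

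The 6 sterol members with the smallest p kept the same direction in all 8 lines. Tm7sf2 was called lower in 6 lines, and its mean over the lines ran from 22.5 to 57.5 CPM in mono-culture (median 34.98) and from 14.8 to 39.1 in coculture (median 23.6). Lss, also called in 6 lines, ran from 132 to 307 CPM (median 241) and from 80.0 to 235 (median 159). Nsdhl was called in 6 lines as well and ran from 117 to 288 CPM (median 236) and from 74.5 to 211 (median 117). For these 3 genes the ranges of the lines overlapped between the cultures, while every line had the lower mean in coculture. Stard4, called in 5 lines, had line means of 163 to 330 CPM (median 241) in mono-culture and 127 to 217 (median 157) in coculture. Acat2, called in 5 lines, had 145 to 303 CPM (median 222) and 86.3 to 199 (median 122).

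Among the desaturases, Scd2 (ENSMUSG00000025203, chr19:44293674-44306864, plus strand) fell from 5977 ± 675 to 2284 ± 379 CPM in E and from 4144 ± 210 to 1863 ± 243 in V. In T it fell from 4906 ± 920 to 2411 ± 617, in H from 3540 ± 210 to 1984 ± 279 and in KPC1 from 3817 ± 260 to 2318 ± 641 CPM. K, M and N had smaller differences that did not pass the test, from 5679 ± 396 to 4766 ± 316 CPM in K, from 5070 ± 461 to 4222 ± 679 in M and from 3995 ± 1282 to 3220 ± 489 in N. In K the 4 coculture libraries nevertheless lay below the 4 mono-culture libraries. Scd1 was called in the same 5 lines as Scd2, from −1.16 in E to −0.43 in KPC1 on the log2 scale, and had values of −0.28 in M, −0.20 in K and −0.07 in N. Fads1 was called in these 5 lines too, with smaller values than Scd2 (−0.31 in H to −0.47 in KPC1). In KPC1 the value of Scd1 was smaller than that of Fads1.

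**Figure D3:**
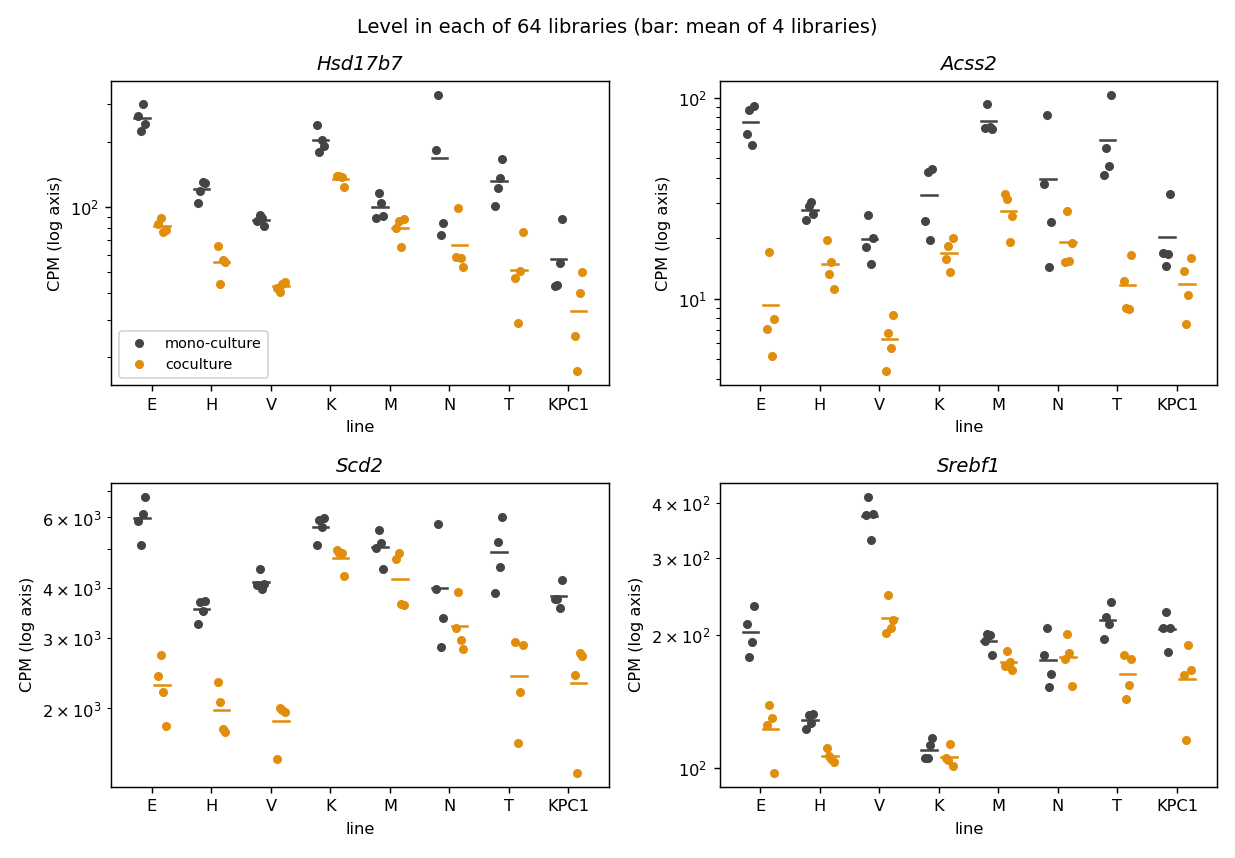
CPM of Hsd17b7, Acss2, Scd2 and Srebf1 in each of the 64 libraries (log axis), by line and culture, with bars at the mean of 4 libraries. In E, H, V and T all 4 coculture libraries lie below all mono-culture libraries for each of these genes, while N overlaps in all of them and V stands above the other lines for Srebf1 in mono-culture at 374 CPM.

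The third comparison asked whether the size of the response differed between the 8 lines (7 interaction contrasts in the same fit). It was called for 26 of 33 members, 16 of 23 sterol and 10 of 10 fatty acid genes, against 71.3% of all genes. Those not called were Acat2, Idi1, Lss, Tm7sf2, Sc5d, Insig2 and Stard4, with adjusted p-values from 0.114 to 0.283. The count of members was 15, 14 and 15 without replicate number 1, 3 and 4 (57.4% to 60.9% of all genes) and 28 without number 2 (60.2%).

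Srebf1 had the smallest p for a difference between lines (ENSMUSG00000020538, chr11:60199089-60222581, minus strand, adjusted p = 1.03e-05). It was called lower in V, from 374 ± 34.2 to 219 ± 19.8 CPM, in E, from 204 ± 23.6 to 123 ± 17.8, in T, KPC1 and H. In M it had 194 ± 9.54 and 174 ± 7.55 CPM (adjusted p = 0.254), in N 176 ± 24.1 and 178 ± 19.6 CPM, and in K 110 ± 5.70 and 106 ± 5.30 CPM. Insig1 followed (adjusted p = 1.39e-05). Its response was −1.41 in V, where it fell from 124 ± 9.62 to 46.5 ± 7.80 CPM, −1.20 in T, −0.97 in E and −0.92 in H. The other 4 lines had −0.31 (KPC1), −0.25 (M), −0.19 (N) and −0.18 (K), none of which was called. Elovl6 (adjusted p = 1.52e-05) was called lower in the same 5 lines as Scd2, by −1.11 in V to −0.50 in E, and had values of 0.08 in K, 0.17 in M and 0.03 in N that did not pass the test. Scd2, described above, had the fourth smallest p (adjusted p = 5.30e-05).

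Calls of a higher level were made 4 times in single lines (all genes, 20% in N, 12.5% in K and 21.6% in M), and these are named for that reason, after their values were seen. Pmvk rose in N from 54.2 ± 18.9 to 78.5 ± 17.3 CPM (adjusted p = 0.0371), and Acaca rose there from 96.3 ± 20.9 to 128 ± 20.8 CPM (adjusted p = 0.0411). Scap rose in K (0.29 on the log2 scale) and Insig2 in M (0.22). In all 4 the libraries of the cultures overlapped. In other lines, Pmvk was called lower in E, V and KPC1, Acaca in E and H, Scap in KPC1 and Insig2 in T.

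The fourth comparison asked how the lines differed before they met fibroblasts. In mono-culture all 33 members differed between the 8 lines, against 95.1% of all genes, so the members were not set apart from other genes by this. The highest line mean was between 1.30 times (Scap) and 5.36 times (Insig1) the lowest. Insig1 was lowest in V at 124 CPM and highest in E at 664 ± 67.3 CPM. Next to E was T at 590 ± 58.3 CPM, within the spread of their libraries. Hsd17b7 had a ratio of 4.50 (KPC1 lowest, E highest), Acss2 of 3.85 (V lowest, M highest) and Srebf1 of 3.39 (K lowest, V highest). E had the highest mono-culture mean for 16 of 33 members and N the lowest for 18. For some of these 18 the mono-culture libraries of N were far apart. They had 143, 261, 71.9 and 104 CPM of Acat2 (median of the line means 222). For Fdps they had 294, 433, 157 and 205 CPM (median 408). Library 2 of N thus lay above the median for these genes. For Scap, also lowest in N, the libraries were closer, at 63.1, 61.3, 62.7 and 54.9 CPM. The order of the lines was not that of the groups, since E belongs to group 1 and K, second for the sterol branch, to group 2.

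**Figure D4:**
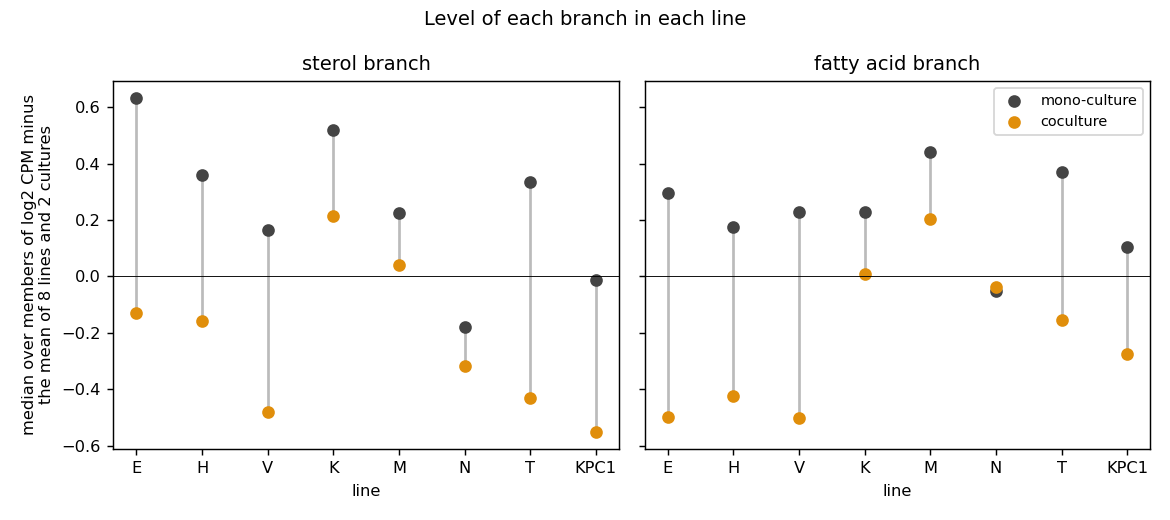
Median over the members of each branch of log2 CPM minus its mean over 8 lines and 2 cultures, for mono-culture (dark points) and coculture (orange points) in each line. For the sterol branch E was highest in mono-culture (0.63) and K in coculture (0.21), and for the fatty acid branch N had −0.05 and −0.04.

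The relative level of the sterol branch, the median over members of log2 CPM minus the mean over lines and cultures, was 0.63 in E, 0.52 in K, 0.36 in H, 0.33 in T, 0.23 in M, 0.17 in V, −0.01 in KPC1 and −0.18 in N in mono-culture. In coculture K was highest (0.21), M next (0.04) and KPC1 lowest (−0.55). For the fatty acid branch M was highest in both cultures (0.44 and 0.21). The SD of log2 CPM over the lines was smaller in coculture for 10 of 23 sterol and 5 of 10 fatty acid members, against 55.7% of all genes.

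The fifth comparison set the metabolic groups against each other in mono-culture, with clones as replicates (3 against 4). With edgeR, 0 of 14829 genes were called (0%), so 0 members were, and 766 genes had an unadjusted p under 0.05. DESeq2 called 157 genes and 0 members. Of the sterol members, 18 of 23 had the higher fitted value in group 1 (median log2 difference 0.19), and of the fatty acid members 5 of 10 (0.02). Of all genes tested, 7204 of 14829 did (median −0.013). The members with the smallest p were Dhcr7 (0.56, SE 0.19, unadjusted p = 0.02, adjusted p = 0.888), Pmvk (0.58, SE 0.22, unadjusted p = 0.0317, adjusted p = 0.888) and Fdps (0.48, SE 0.20, unadjusted p = 0.0443, adjusted p = 0.888). In mono-culture Dhcr7 had 99.5 CPM in E, 89.3 in V and 74.1 in H, and 67.7 in M, 66.1 in T, 59.9 in K and 44.5 in N. The clones of the groups did not overlap for Dhcr7 or, by a small margin, for Fdps, but both were picked here by their p. The share of all genes without such overlap was not counted, so this does not set them apart. Pmvk had 91.2, 76.7 and 66.2 CPM in E, H and V, and 68.3, 54.2, 45.1 and 40.3 in T, N, K and M, and there T lay above V. Fdps had 565, 473 and 440 CPM in E, V and H, and 436, 380, 325 and 272 in K, T, M and N, with K close below H.

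The sixth comparison asked whether the coculture response differed between the groups (14 sums, clone as covariate). The interaction was called for 1 of 14523 genes (0.00689%) and for 0 members, and 1096 genes and 11 members (5 sterol, 6 fatty acid) had an unadjusted p under 0.05. The value was the group 1 response minus the group 2 response. It was negative for 7271 of all 14523 genes and for 32 of 33 members. The medians were −0.33 for the sterol and −0.39 for the fatty acid branch. The members varied together, as described below, so their signs are not independent of each other. The smallest p was that of Elovl6 (−0.73, SE 0.21, unadjusted p = 0.00813, adjusted p = 0.62), followed by Fads2 (−0.55, SE 0.17, unadjusted p = 0.0126, adjusted p = 0.658) and Scd2 (−0.64, SE 0.23, unadjusted p = 0.024, adjusted p = 0.658). DESeq2 called 193 genes and 1 member, Elovl6 (−0.76, SE 0.24, adjusted p = 0.0969). Clone T of group 2 had a sterol median below those of E, H and V, while K, M and N had medians nearer 0 than all 3. For the fatty acid branch the medians of E, H and V all lay below those of T, K, M and N. There T (−0.46) was close to H (−0.48).

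Within the lines and cultures the members also varied together. After the mean of each line and culture was taken away, the deviations of the 64 libraries had a median Pearson r of 0.76 over 253 pairs of sterol members, 0.67 over 45 pairs of fatty acid members and 0.64 over 230 pairs across the branches. These r values describe libraries that share depth, scaling and culture conditions, and no p is attached to them. Pairs of other genes were not computed, so whether the members varied together more than other genes is not known. Scap and Insig2 were the sterol members least like the others, with a median r with the sterol members of 0.11 and 0.28. Pmvk (0.80) and Idi1 (0.74), which like them were not called in coculture, were close to the others. Acaca had 0.23 with the sterol and 0.60 with the fatty acid members. Fads2 (0.78), Acly (0.80) and Fads1 (0.74) of the fatty acid branch followed the sterol members more closely than Fasn did (0.39).

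Genes around the 2 pathways were counted from lists written in the same way. Of 5 genes that cleave, hold or degrade the SREBP machinery, 1 was called lower and 0 higher (median −0.02), against 27.4% and 27.2% of all genes tested. This was Rnf139, a ubiquitin ligase (−0.14, SE 0.06, adjusted p = 0.0824). The protease gene Mbtps2 (0.09, adjusted p = 0.307) was not called. Of 10 genes that use isoprenoids for other products, 2 were called lower and 3 higher (median 0.09), shares near the 27.4% and 27.2% of all genes tested. Fnta, a subunit shared by the farnesyl and geranylgeranyl transferases, fell (−0.35, adjusted p = 0.012), whereas Ggps1, which makes geranylgeranyl pyrophosphate, rose (0.28, adjusted p = 0.0503).

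Of 12 tested genes of sterol handling (uptake, storage, export, hydroxylation and their control), 1 was called lower and 3 higher (median 0.08). Of all genes tested, 27.4% and 27.2% were. Abca1, the cholesterol exporter, had the lower value in all 8 lines, called in 7, and fell from a mean of 47.5 to 17.4 CPM (−1.41, SE 0.20, adjusted p = 0.00131). Scarb1, a lipoprotein receptor, rose (0.22, adjusted p = 0.0253). Ch25h, which hydroxylates cholesterol, was called higher, but it had a mean of 0.0326 CPM in mono-culture and 0.6 CPM in coculture, the culture in which fibroblast markers were also higher.

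Of 17 tested genes that serve fatty acid synthesis in other ways, 6 were called lower and 2 higher (median −0.15), against 27.4% and 27.2% of all genes tested. Slc25a1, which exports citrate from mitochondria, fell (−0.35, SE 0.07, adjusted p = 0.00485) and so did Acsl3, which activates fatty acids (−0.43, adjusted p = 0.0118). Acsl1, a related enzyme, rose from a mean of 14.2 to 22.1 CPM (0.69, SE 0.14, adjusted p = 0.00389) and had the higher value in all 8 lines. Of 14 genes of fatty acid oxidation, 9 were called lower and 0 higher (median −0.24), against 27.4% and 27.2% of all genes tested. Cpt1a, which admits fatty acids to mitochondria, fell from 214 to 112 CPM (−0.87, SE 0.17, adjusted p = 0.00364), Acadm, a dehydrogenase of medium chains, from 168 to 113 CPM (−0.53) and Acadvl, its counterpart for very long chains, from 34.1 to 20.6 CPM (−0.75). These 3 had negative values in all 8 lines. Genes of fatty acid breakdown were thus lower in the same cultures as genes of fatty acid synthesis.

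The response over 8 lines was also computed within the inferred sample sheets. In the larger sheet (41 libraries of the 7 lines with both cultures there) the call did not change for any member. In the smaller one (18 libraries of 5 lines) 17 sterol and 3 fatty acid members were called lower, with medians of −0.45 and −0.21, and 0 were called higher. All mono-culture libraries of K are in the smaller sheet. If the inferred sheets were batches, sheet and culture could not be fully told apart for K.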

How the data were processed

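The deposited tables held gene counts and RPKM for 64 polyA libraries (strand-specific Agilent SureSelect kit, paired ends, NextSeq 500). Per the labels, the authors aligned reads to mm10 and used featureCounts and edgeR, with versions and the strand setting not given in the sources used here. The deposited counts were raw, and the deposited RPKM values, which the authors scaled by gene length and library total, served for levels between genes and for an alternative test. Library totals were 11178721 to 21333683 counts over 39017 genes, of which 13527 had no count.

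Counts were tested with edgeR 4.0.16 (R 4.3.3) by the quasi-likelihood test, with TMM scaling, the filterByExpr filter and Benjamini-Hochberg adjustment at a threshold of 0.1. Libraries were summed per line and culture for comparisons over lines and groups, and kept single within lines. DESeq2 1.42.0, limma 3.58.1 on log2(RPKM + 1) and log2(RPKM + 0.1), RLE scaling, no filter, and leaving out lines, replicate numbers or sample sheets were alternatives. Sample sheets were inferred from the numbers in the titles, up to 43 for the larger, and no label names a batch. The scripts were tested on simulated data.

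Counts of replicate libraries differed by more than sampling noise in all 96 pairs (chi-square per gene 4.46 to 65.5), so none was counted as a repeat. Lines were placed in metabolic groups by the study's methods. All members were named with their response over the lines. Values per line or library were given for the members with the smallest p in that response (6 sterol, 4 fatty acid), for a difference between lines (4) and between groups (3), with up to 3 genes of each related list. Some genes of these lists are not reported here by name. The members and lists were chosen with earlier results of these data known. Gene positions are from GENCODE M21 and promoter windows from RefSeq, both on GRCm38.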

Additional observations from a re-analysis of the deposited data

Results flagged for a closer look

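Of 114 groups of 4 to 8 values examined, 7 held a value far from the rest, and chance gives about 1 in 20. Among the lines in mono-culture, V had an Srebf1 level of 374 CPM, while the other 7 lines lay between 110 and 217. In the coculture of K, library 4 had 124 CPM of Hsd17b7 against 138 to 140 in the other 3, and the same library had 4297 CPM of Scd2 against 4887 to 4989. In the coculture of N, library 2 had 98.5 CPM of Hsd17b7 against 52.5 to 58.7. In the coculture of V, library 1 had 1499 CPM of Scd2 against 1964 to 2011. For Acss2 in mono-culture, library 2 of M had 92.5 CPM against 69.6 to 71.6, and library 4 of KPC1 had 33.1 CPM against 14.5 to 16.9. The causes of these values were not tested.

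The coculture response differed between the 8 lines for 71.3% of all genes in edgeR's quasi-likelihood test of the interaction. The 4 members with the smallest p were Srebf1 (adjusted p = 1.03e-05), Insig1 (adjusted p = 1.39e-05), Elovl6 (adjusted p = 1.52e-05) and Scd2 (adjusted p = 5.30e-05). All 4 were called lower in E, H, V and T, and none of them was called in K, M or N.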

How the results depend on the processing

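Over 8 lines, 0 members were called higher in any of the 22 alternatives, 17 to 21 sterol members were called lower, and the branch medians stayed negative (−0.62 to −0.45 sterol, −0.46 to −0.21 fatty acid). Of 726 values of single members, 705 kept their side of the threshold, 9 lost the call and 12 gained it. No called member changed sign, whereas the uncalled Insig2 (−0.001 to 0.075) and Scap (−0.051 to 0.119) did. Within the smaller sample sheet, an alternative added after seeing the data, 3 fatty acid members and 2532 genes were called. With the smaller sheet fewer libraries and lines enter the fit.

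Members called lower within lines numbered 13 in H and 2 in KPC1 and 1 in M within the larger sheet. Without single replicate numbers they ranged from 0 to 5 in K, 1 to 5 in M, 3 to 9 in N and 13 to 21 in KPC1. In M, limma on RPKM gave 1 with either pseudocount, and an adjusted p under 0.05 left 2. Members whose response differed between lines ranged from 14 to 28 without single replicate numbers. No source says that replicate numbers pair the samples, and 18 of 32 pairs had an r over 0.1 (range −0.0692 to 0.291). As a hint from the data that some do, 24 of 32 mono-culture libraries were closest to their own number. With a replicate block, 32 members (75.4% of all genes) differed in response between lines, 6 members were called lower in K and 8 in M, 5 members and 3619 genes were called between the groups in mono-culture, and 20 members and 3446 genes for the difference in response between groups. The group fits with the block took libraries, not clones, as replicates.

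Between the groups in mono-culture, genes called numbered 157 with DESeq2, 1 in coculture libraries, 0 to 217 without single clones (217 without E), 1 with no filter and 2 within the larger sheet. For the response between groups, DESeq2 called 193 genes and 1 member, leaving out single clones gave 0 to 34 genes (34 without E), leaving out replicate numbers 0 to 2, no filter 3 and an adjusted p under 0.05 gave 0. The causes were not tested. K has no mono-culture library in the larger sheet, so no value could be given there.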
